A study of Mus musculus with 10 samples.

Results

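Proteasome genes were described in the gastrocnemius (calf) muscle of male C57BL/6 mice. Members were all genes whose single symbol in the platform's probe annotation starts with Psma, Psmb, Psmc, Psmd, Psme, Psmf or Psmg, each read from its probe set with the highest mean signal. This rule found 50 of 19938 named genes. All members are chosen by name, and Psmc3ip, a meiotic recombination factor, and Psme3ip1, a partner of the activator Psme3, carry such symbols without being subunits. Each of the 10 arrays held RNA pooled from 5 animals and diluted to 98 ng/µl. F0 animals had exercised voluntarily (EX) or lived sedentary (SED), had been mated within their exposure and were 28 weeks old. Animals of F1, some of which were bred with littermates to give F2, and of F2 were all sedentary and 8 weeks old, and for them EX and SED refer to ancestry alone. There was 1 pool for each F0 exposure and there were 2 for each ancestry in F1 and in F2. The labels number these pools without saying that they hold different animals, so p-values rest on the spread between pools, which may be technical. The fits of F0 against descendants, ancestry over both generations and F2 against F1 assumed the same EX-SED difference in each generation fitted. Any variation of that difference between those generations also counted as spread, including that of F0 where F0 was fitted. Age goes with F0 in every comparison of F0 with its descendants, and both cannot be told apart.

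The proteasome degrades proteins that carry a ubiquitin chain. Its 20S core is a barrel of outer alpha and inner beta rings, whose beta subunits Psmb5, Psmb6 and Psmb7 hold the chymotrypsin-like, caspase-like and trypsin-like active sites. A 19S cap of ATPases (Psmc genes) and non-ATPases (most Psmd genes) binds, unfolds and feeds substrates, and the alternative caps PA28 (Psme1 with Psme2, or Psme3) and PA200 (Psme4) bind the same alpha ring. Interferon induces Psmb8, Psmb9 and Psmb10, which replace Psmb5, Psmb6 and Psmb7 in the immunoproteasome and favour peptides for antigen presentation. In muscle, the system removes myofibrillar and damaged proteins, and its genes are known to rise together in wasting. Nfe2l1 and Nfe2l2 are transcription factors that can induce proteasome genes.

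Upstream sequences of standard and inducible partners are shown because the values of Psmb9 and its partner Psmb6 parted in 1 descendant pool. RefSeq promoters of GRCm38.p6 were matched for 42 of 50 members, and the 250 bases before the transcript start were searched on both strands. The letters TGACNNNGC stand for the core of the antioxidant response element, which Nfe2l1 and Nfe2l2 bind with small Maf proteins. A pair of GAAA half-sites in the same direction, 2 bases apart, is a form of the interferon-stimulated response element, and TTCNNNGAA is the palindrome of the gamma-activated site. Capitals mark matches, the strand of each gene is given, and sequences run 5′ to 3′ towards the gene. 
Psmb5, chr14:54617996-54618245, minus strand: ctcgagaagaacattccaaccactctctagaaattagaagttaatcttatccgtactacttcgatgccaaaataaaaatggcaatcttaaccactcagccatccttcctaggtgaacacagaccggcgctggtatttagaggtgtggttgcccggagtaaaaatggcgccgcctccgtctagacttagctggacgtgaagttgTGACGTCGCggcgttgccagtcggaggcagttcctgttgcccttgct
Psmb8, chr17:34197945-34198194, plus strand: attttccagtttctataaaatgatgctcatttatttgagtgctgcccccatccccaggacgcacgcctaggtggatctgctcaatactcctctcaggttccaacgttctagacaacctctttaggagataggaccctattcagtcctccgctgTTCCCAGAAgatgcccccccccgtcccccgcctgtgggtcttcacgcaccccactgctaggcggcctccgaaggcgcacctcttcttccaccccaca
Psmb6, chr11:70525107-70525356, plus strand: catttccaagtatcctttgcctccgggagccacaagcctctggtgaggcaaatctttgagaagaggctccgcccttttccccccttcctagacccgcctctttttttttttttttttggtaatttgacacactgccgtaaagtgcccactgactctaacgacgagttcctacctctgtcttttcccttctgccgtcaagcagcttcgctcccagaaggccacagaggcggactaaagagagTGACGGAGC
Psmb9, chr17:34187331-34187580, minus strand: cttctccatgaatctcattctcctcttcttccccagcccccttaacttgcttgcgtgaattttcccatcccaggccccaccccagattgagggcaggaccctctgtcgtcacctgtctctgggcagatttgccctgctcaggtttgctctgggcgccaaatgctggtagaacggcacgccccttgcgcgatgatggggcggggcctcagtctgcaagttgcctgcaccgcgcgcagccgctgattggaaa

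Psmb5 and Psmb6 held the letters TGACNNNGC, as TGACGTCGC beginning 47 bases before the start of Psmb5 and as TGACGGAGC beginning 9 bases before that of Psmb6. Psmb8 held TTCCCAGAA beginning 97 bases before its start, and the window of Psmb9 held none of these letters. The third pair, Psmb7 with Psmb10, is not shown, and the window of Psmb10 also held none of them. Over the members with a promoter, TGACNNNGC stood in 5 (Psmb5, Psmb6, Psmc6, Psmd9 and Psmd12), or 11.9%, against 11.5% of 27025 genes. The GAAA pair stood in Psmb3, Psmd4 and Psmd9, 7.1% of members against 3.5% of genes. TTCNNNGAA stood in Psmb8 and Psmg1, 4.8% against 8.1%. No pair of these motifs overlapped in the printed windows, where each held at most 1 match.

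After a filter on low signals (a mean log2 signal of at least 3.23, the 40th percentile of all genes), 47 of 50 members and 11963 genes remained. The members left out were Psma8, a testis subunit of the alpha ring with a mean of 2.38, Psmb11, the thymus catalytic subunit, with 2.60, and the assembly chaperone Psmg3 with 3.22. Psmg4 at 3.56 and Psmc3ip at 3.83 lay just inside. The remaining members were 7 of 8 alpha subunits, all 7 standard beta subunits, 3 of 4 immunoproteasome and thymoproteasome subunits, all 6 ATPases, all 11 non-ATPases and all 3 base assembly factors. All 4 activators, the regulator Psmf1 (PI31), 3 of 4 assembly chaperones and both symbols that are no subunits were also kept. Fast muscle markers, 12 of 12, passed the filter, and Acta1 (skeletal actin) lay between 13.13 and 13.54. In such bulk RNA, fewer cells of a type and less RNA per cell cannot be told apart.

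F0 SED and F1 EX pool 1 stood apart from the other arrays. Their median correlation with the others over the 11963 genes past the filter was 0.974 and 0.979, against 0.986 to 0.993. Their lower quartile of signal over all probe sets was 2.48 in both, against 2.28 to 2.32. Many results that rest on either are given with and without it.

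**Figure D1:**
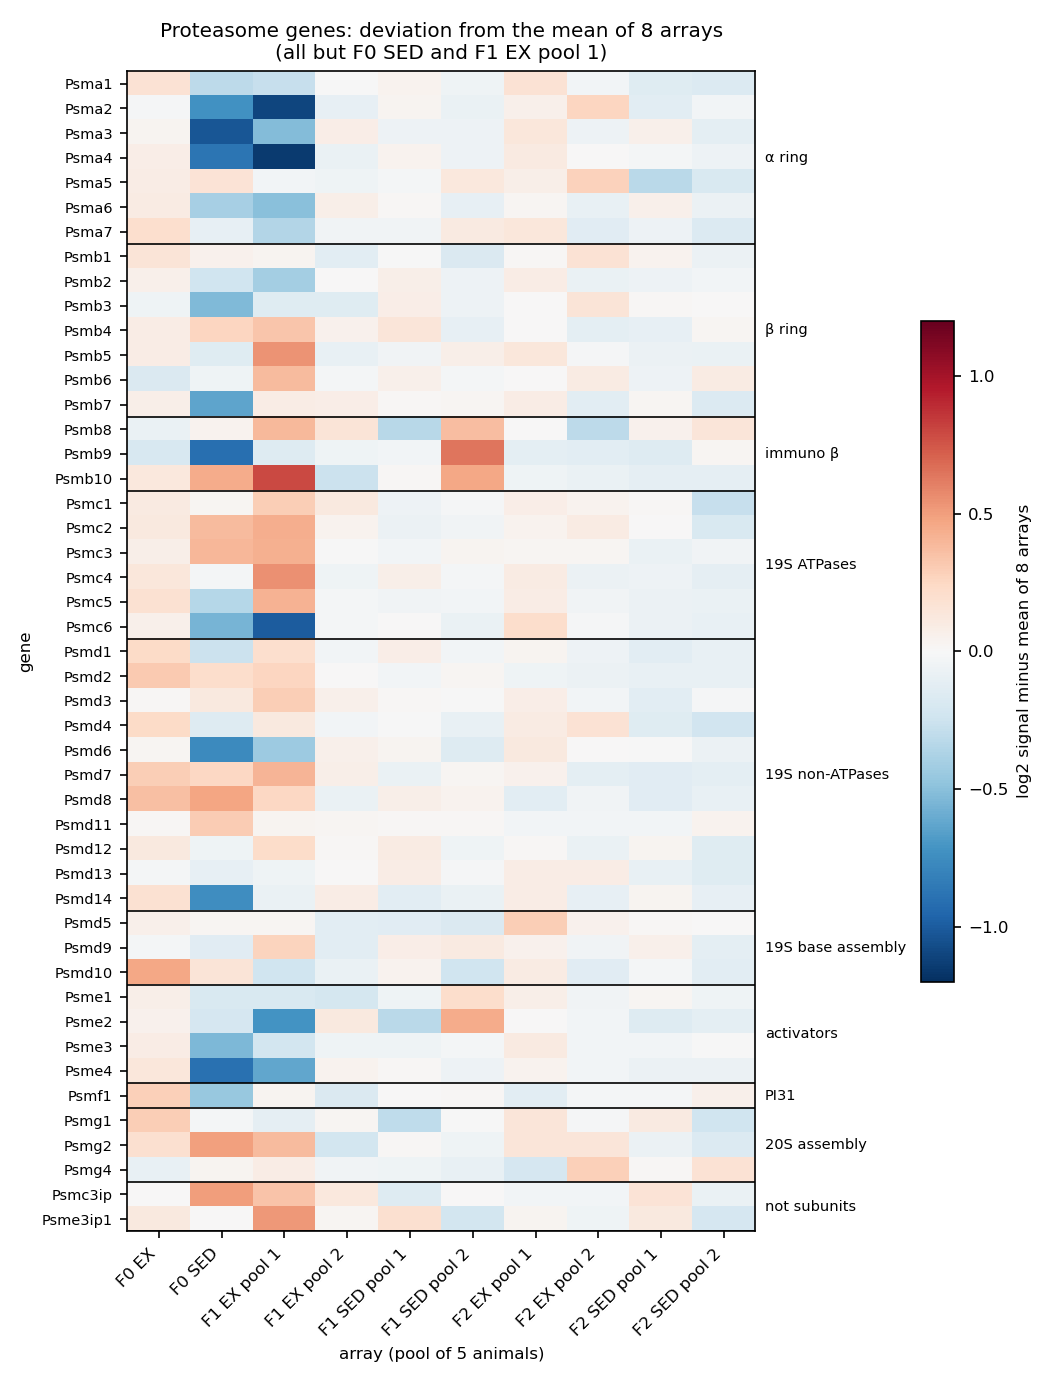
Heat map of 47 proteasome genes (rows, grouped by role) over 10 arrays (columns); colour is the log2 signal minus the mean of the 8 arrays other than F0 SED and F1 EX pool 1. F0 SED and F1 EX pool 1 carry most of the strong colours, with Psma4 down to -1.15 in F1 EX pool 1, and F1 SED pool 2 is high for Psmb9.

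The spread of the proteasome genes over the 8 descendant pools was close to that of other genes, with a median SD of 0.16 on the log2 scale for members and 0.15 for all 11963 genes. Over the 7 pools other than F1 EX pool 1, the median SD of the members was 0.10 and that of all genes 0.12. An SD under 0.15 was found for 38 of 47 members and for 7876 of 11963 genes. Psmd11, a subunit of the cap's lid, had the lowest SD with 0.03, and Psmb9 the highest with 0.28. By role, the median SD was 0.08 for ATPases and for non-ATPases, 0.10 for the standard beta ring and 0.11 for the alpha ring. It was 0.17 for the 3 kept assembly chaperones and 0.26 for the 3 immunoproteasome subunits. The mean signals of these 3 subunits were 5.2 to 5.5, against 7.9 to 9.1 for the ATPases. Psmb9 had 6.27 in F1 SED pool 2 and 5.47 to 5.65 in the other descendant pools. The part of signal level in these SDs was not tested.

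Ancestry was the question of the study in animals that had not themselves exercised. In no ancestry comparison did a proteasome gene pass limma's test with Benjamini-Hochberg adjustment over 11963 genes at 0.05. Over both generations, 0 of 47 members were called (0% of all genes), with 1 member at an unadjusted p under 0.05 against 4.99% of genes, and 30 of 47 estimates (63.8%) were above 0 against 53.3%. In F1 alone 0 of 47 were called (0% of genes), with 0 at an unadjusted p under 0.05 against 4.88%, and 27 of 47 estimates (57.4%) were above 0 against 48.9%. In F2 alone 0 of 47 were called (0% of genes), with 2 at an unadjusted p under 0.05 against 4.45%. Limma with trend and robust moderation and limma with array weights also called 0 members, and no tool other than limma was run. The 95% interval of the difference lay within 0.5 on the log2 scale either way for 42 of 47 members over both generations, for 22 in F1 and for 33 in F2.

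In F2, 39 of 47 members (83.0%) had estimates above 0, against 60.7% of all genes, and the median was 0.08 against 0.04. Under quantile normalization the shares were 66.0% of members and 55.3% of genes. With arrays centred over the kept genes they were 63.8% and 45.7%, and without F2 EX pool 1 they were 61.7% and 57.4%. All 6 ATPases had estimates above 0 in F2, from 0.09 for Psmc3 to 0.19 for Psmc1, and likewise 10 of 11 non-ATPases. The ATPases stayed at 6 of 6 under quantile normalization and under centring over kept genes, whereas the non-ATPases fell to 6 of 11 under each. None of these estimates passed the test.

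Psma5, an alpha ring subunit, had the smallest p of the members in F2. Its log2 signal was 7.04 and 7.25 in the F2 EX pools and 6.65 and 6.79 in the F2 SED pools, with 6.94 and 6.92 in F1 EX, 6.95 and 7.10 in F1 SED, 7.06 in F0 EX and 7.13 in F0 SED. F2 EX and F2 SED did not overlap, and the F2 SED pools were the lowest of the 10 arrays. The difference was 0.42 (SE 0.13, limma adjusted p = 1.00). A second Psma5 probe set had 6.89 and 6.77 in F2 EX and 6.71 and 6.66 in F2 SED, the same direction with a smaller gap. Psmd4, a ubiquitin receptor of the cap, followed with 7.93 and 8.01 in F2 EX and 7.69 and 7.61 in F2 SED. Its F2 groups did not overlap, whereas in F1 it had 7.95 and 7.80 in EX and 7.83 and 7.75 in SED, which overlapped. Its F2 difference was 0.32 (SE 0.12, limma adjusted p = 1.00). Psmd13, a lid subunit, had 7.51 in both F2 EX pools and 7.33 and 7.28 in F2 SED. Psma1, in the alpha ring, had 8.38 and 8.17 in F2 EX against 8.06 and 8.04 in F2 SED. Psmg2, a chaperone of alpha ring assembly, had 6.39 in both F2 EX pools against 6.17 and 6.08. Each of these 3 had F2 groups that did not overlap, with differences of 0.20, 0.22 and 0.26. Here and below, groups without overlap are described for members named for their small p, which makes such a gap likely. How many of all genes had such a gap was not counted.

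Over both generations the smallest p belonged to Psmc1, an ATPase. Its log2 signal was 8.28 and 8.10 in F1 EX, 7.92 and 7.97 in F1 SED, 8.06 and 8.03 in F2 EX and 8.00 and 7.71 in F2 SED. EX lay above SED in both generations without overlap, and the difference was 0.22 (SE 0.09, limma adjusted p = 0.888). The second Psmc1 probe set did not share this order, with 7.08 and 7.50 in F1 EX and 7.36 and 7.35 in F1 SED. Psmd4 and the ATPase Psmc2 followed with 0.20 and 0.23. Psmc2 had 9.08 and 8.69 in F1 EX, 8.57 and 8.60 in F1 SED, 8.69 and 8.74 in F2 EX and 8.65 and 8.46 in F2 SED, so EX and SED pools did not overlap within a generation. Without F1 EX pool 1, its difference was 0.13. Psmd7, a lid subunit, had 9.10 and 8.77 in F1 EX against 8.62 and 8.72 in F1 SED, and 8.75 and 8.58 in F2 EX against 8.56 and 8.58 in F2 SED, a difference of 0.18 that was 0.10 without F1 EX pool 1. Psmc1 and Psmd4 had 0.18 and 0.19 without that pool.

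In F1, the alpha ring and the ATPases lay on opposite sides of 0. All 7 alpha subunits had estimates below 0, with a median of -0.17 from -0.61 for Psma4 to -0.10 for Psma5, and all 4 activators lay below 0 with a median of -0.27. Of 6 ATPases, 5 lay above 0 with a median of 0.23, the exception being Psmc6 at -0.48. Over all 47 members the median was 0.04. These medians rested on F1 EX pool 1. Without that pool, 3 of 7 alpha subunits lay above 0 with a median of -0.07, the activators' median was 0.02 and that of the ATPases 0.01. None of the members passed the test with or without it.

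**Figure D2:**
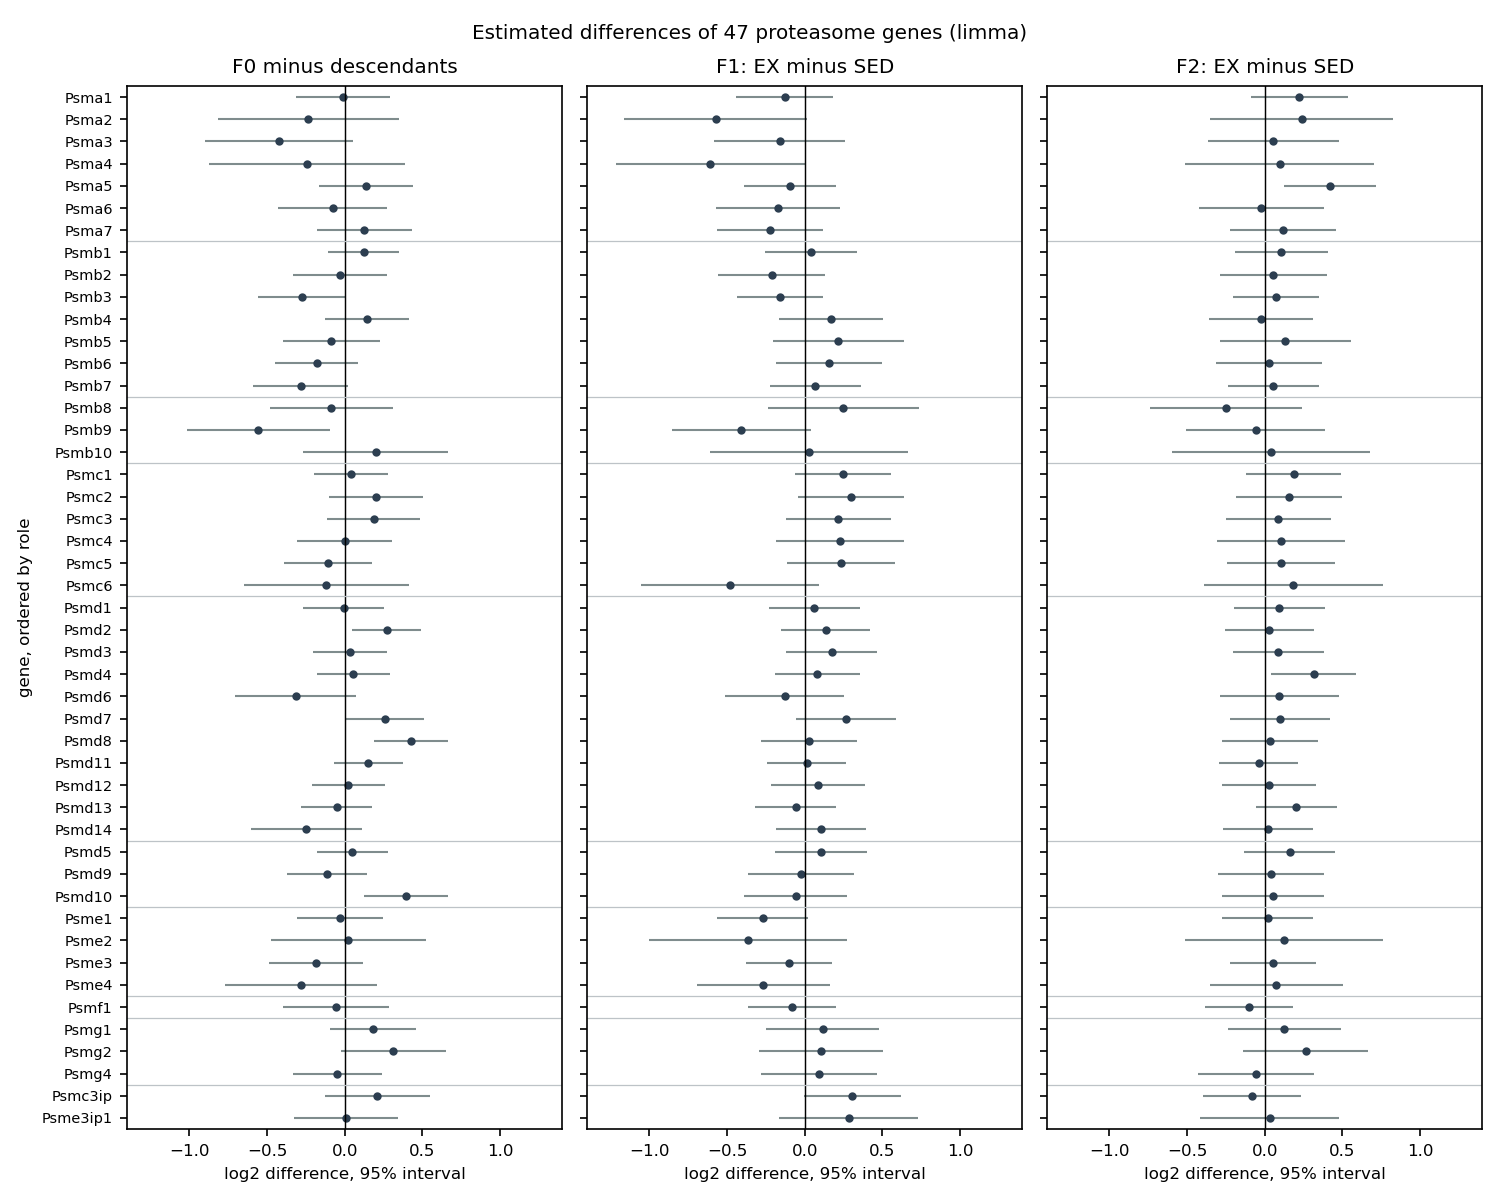
Estimated log2 differences (points) with 95% intervals (lines) for 47 proteasome genes ordered by role, from limma, in 3 comparisons: F0 minus descendants, F1 EX minus F1 SED and F2 EX minus F2 SED. In F2 39 of 47 points lie right of 0, in F1 all 7 alpha subunits lie left of it, and no gene passed the adjusted threshold.

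Psma4, in the alpha ring, had the smallest p of the members in F1. Its log2 signal was 6.67 in F1 EX pool 1 and 7.74 in F1 EX pool 2, 7.86 and 7.76 in F1 SED, 7.93 and 7.83 in F2 EX, 7.80 and 7.76 in F2 SED, 7.90 in F0 EX and 6.95 in F0 SED. Only F0 SED and F1 EX pool 1 were low, and the other 8 arrays lay within 0.19 of each other. The F1 difference was -0.61 (SE 0.27, limma adjusted p = 0.804) and -0.07 without F1 EX pool 1. Psma2, in the same ring, had 6.20 and 7.20 in F1 EX, 7.33 and 7.22 in F1 SED, 7.36 and 7.56 in F2 EX, 7.17 and 7.27 in F2 SED, 7.29 in F0 EX and 6.57 in F0 SED. Its low arrays were again F1 EX pool 1 and F0 SED. Its F1 difference was -0.57 (SE 0.26), with -0.07 once more when F1 EX pool 1 was left out. Psmc3ip, which is no subunit, had a p between those of Psma4 and Psma2. It had 4.09 and 3.87 in F1 EX and 3.59 and 3.75 in F1 SED, a difference of 0.31 (SE 0.14). With F1 EX pool 2 left out, so that F1 EX pool 1 alone stood for F1 EX and was taken to vary like the other groups, 6 of 47 members were called, beside 8.74% of all genes. Psma4 (-1.14), Psma2 (-1.07), Psmc6 (-0.97) and Psme4 (-0.60) were then lower, and Psmb5 and Psmc4 (0.53 each) were higher, with limma adjusted p-values from 0.00678 to 0.0454.

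The test of whether the ancestry effect differed between F2 and F1 called 0 of 47 members (0% of genes), with 1 at an unadjusted p under 0.05 against 4.34% of genes, and 27 of 47 estimates lay above 0 (57.4% against 56.2%). Psma5 had the smallest p with a difference of effects of 0.52 (SE 0.19, limma adjusted p = 0.919). Psma2 followed with 0.81, Psma4 with 0.71 and Psmc6 with 0.66, each with its lowest value in F1 EX pool 1, and Psmc3ip with -0.39. Without F1 EX pool 2, 3 members were called (Psma2, Psma4 and Psmc6), beside 1.2% of genes. F2 against F1, both at 8 weeks, also called 0 of 47 members (0% of genes), with 0 at an unadjusted p under 0.05 against 4.25%, and 21 of 47 estimates lay above 0 (44.7% against 51.6%). The smallest p there was that of Psmd5, an assembly factor of the ATPase ring, whose log2 signal was 5.91 to 6.11 in the F1 pools and 6.09 to 6.38 in the F2 pools. These ranges overlapped, and the difference was 0.19 (SE 0.09, limma adjusted p = 0.911).

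Among the standard catalytic subunits and their interferon-inducible partners, Psmb9 parted from Psmb6 in F1 SED pool 2, whereas Psmb8 and Psmb10 were highest in F1 EX pool 1. Psmb9 had a log2 signal of 6.27 there, against 5.59 in F1 SED pool 1, 5.47 and 5.57 in F1 EX, 5.51 and 5.50 in F2 EX, 5.47 and 5.65 in F2 SED, 5.43 in F0 EX and 4.72 in F0 SED. F1 SED pool 2 was thus the highest array for Psmb9, F0 SED was the lowest, and the others lay between 5.43 and 5.65. Its standard partner Psmb6 had 9.39 in F1 SED pool 2, with 9.47 in F1 SED pool 1, 9.79 and 9.39 in F1 EX, 9.41 and 9.51 in F2 EX, 9.35 and 9.51 in F2 SED, 9.24 in F0 EX and 9.36 in F0 SED. The array that was high for Psmb9 was in the middle of the range for Psmb6.

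Psmb10 was high in 3 arrays. Its log2 signal was 6.00 in F1 EX pool 1, 5.67 in F1 SED pool 2 and 5.65 in F0 SED, while the remaining 7 lay at 4.95 to 5.33. Its partner Psmb7 had 10.32 in F1 SED pool 2, 9.67 in F0 SED and 10.13 to 10.39 elsewhere, so F0 SED was its low array. Psmb8 had 5.52 in F1 SED pool 2 and 4.82 in pool 1, 5.54 and 5.31 in F1 EX, 5.16 and 4.84 in F2 EX, 5.20 and 5.30 in F2 SED, 5.07 in F0 EX and 5.19 in F0 SED. F1 SED pool 2 and F1 EX pool 1 were its highest arrays and the F1 groups overlapped. Psmb5, its partner, had 7.72 in F1 SED pool 2, 8.19 in F1 EX pool 1 and 7.50 to 7.78 in the remaining arrays, so F1 EX pool 1 was high.

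The PA28 genes Psme1 and Psme2, which interferon also induces, were highest in F1 SED pool 2. Psme1 had 8.01 there, against 7.75 in F1 SED pool 1, 7.62 and 7.59 in F1 EX and 7.62 to 7.87 in the other arrays. Psme2 had 6.71 there, against 5.94 in pool 1, 5.54 and 6.38 in F1 EX and 6.06 to 6.31 in the others, so its lowest array was F1 EX pool 1. A probe set that names Psme2 together with Psme2b had 5.24 in F1 SED pool 2, 5.23 in F0 EX and 4.49 to 5.20 in the others, so that array did not stand out there. The nuclear PA28 gene Psme3, which is not part of this set of inducible genes, had 7.75 in F1 SED pool 2 and 7.55 to 7.88 in the other arrays except F0 SED with 7.23. Over all members, 3 of 47 (Psmb9, Psme1 and Psme2) were highest in F1 SED pool 2, or 6.4%, against 4.74% of genes.

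**Figure D3:**
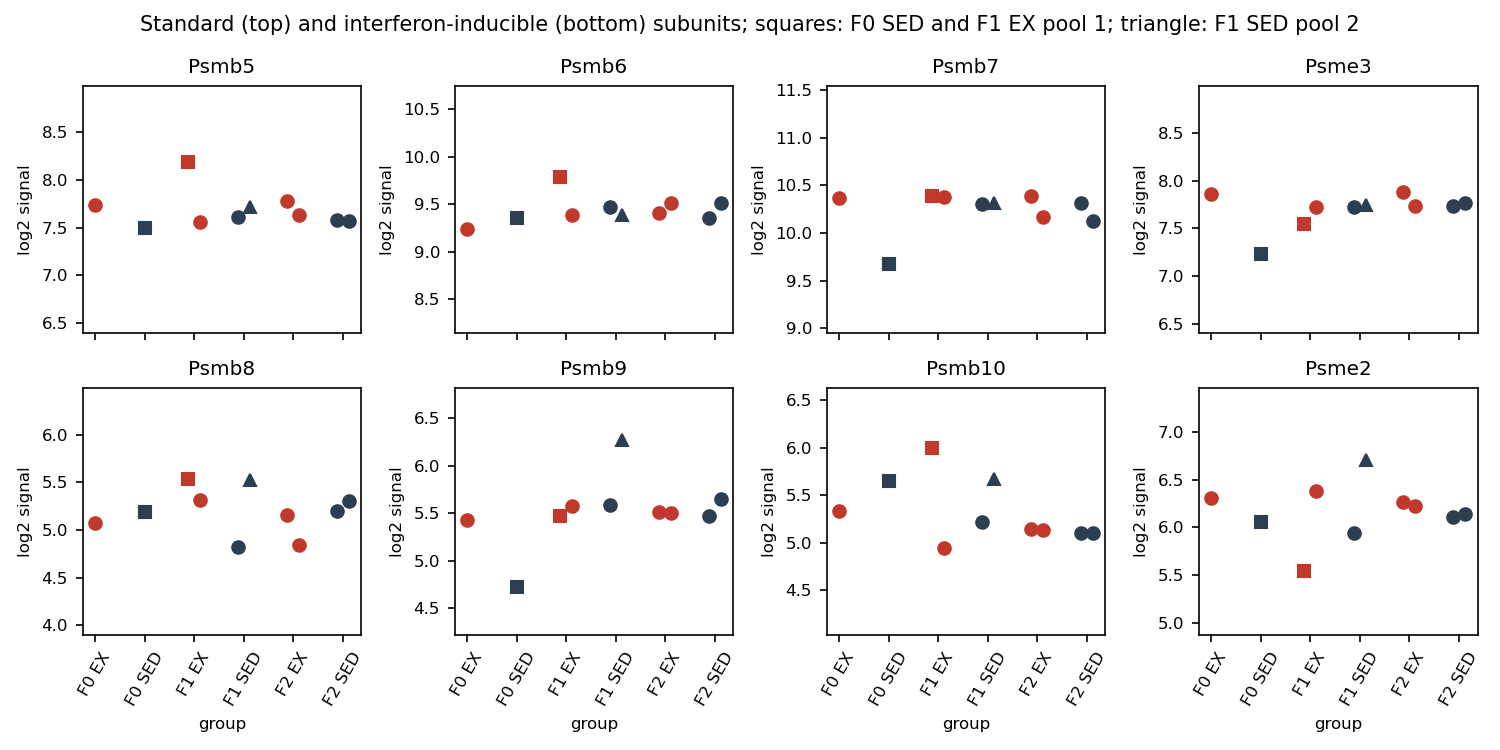
Log2 signal of 4 standard genes (top: Psmb5, Psmb6, Psmb7, Psme3) and 4 interferon-inducible genes (bottom: Psmb8, Psmb9, Psmb10, Psme2) by group, 1 point per array, EX red and SED dark; every panel spans the same log2 range, squares mark F0 SED and F1 EX pool 1 and the triangle F1 SED pool 2. The triangle is at 6.27 for Psmb9 and 6.71 for Psme2 and among the other points for the genes in the top row.

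Other interferon-responsive genes were also high in that pool. An interferon list had 20 genes on the array, none of them proteasome members, and 13 were kept. Of these 13, 10 were highest in F1 SED pool 2. The list's mean deviation from the all-array means was 1.08 there and between -0.14 and -0.04 in the other descendant pools. The rise was uneven within the list. The immunity GTPase genes Iigp1 and Irgm1 had 9.25 and 7.84 there, against 3.92 to 4.62 and 3.98 to 5.38 elsewhere. Ddx58 had 4.52 there and 4.51 to 4.86 elsewhere. Irf1, the transcription factor that drives Psmb9, had 6.03 there and 4.59 to 5.15 elsewhere. Of 9 kept antigen presentation genes 4 were highest there. Tap1, the peptide transporter that shares a locus with Psmb9, had 5.98 against 4.55 to 5.00, and B2m, the light chain of class I molecules, had 10.36 against 8.74 to 9.78. Of 21 kept myeloid markers, 8 were highest in F1 SED pool 2, and their mean deviation was 0.39 there and 0.40 in F2 SED pool 2, where Psmb9 had 5.65. The leukocyte marker Ptprc had 4.34 in F1 SED pool 2 and 4.98 in F2 SED pool 2, against 3.22 to 3.90 elsewhere, and 1 of 10 lymphocyte markers on the array (Cd3e) passed the filter. The part of such cells in the result was not tested.

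**Figure D4:**
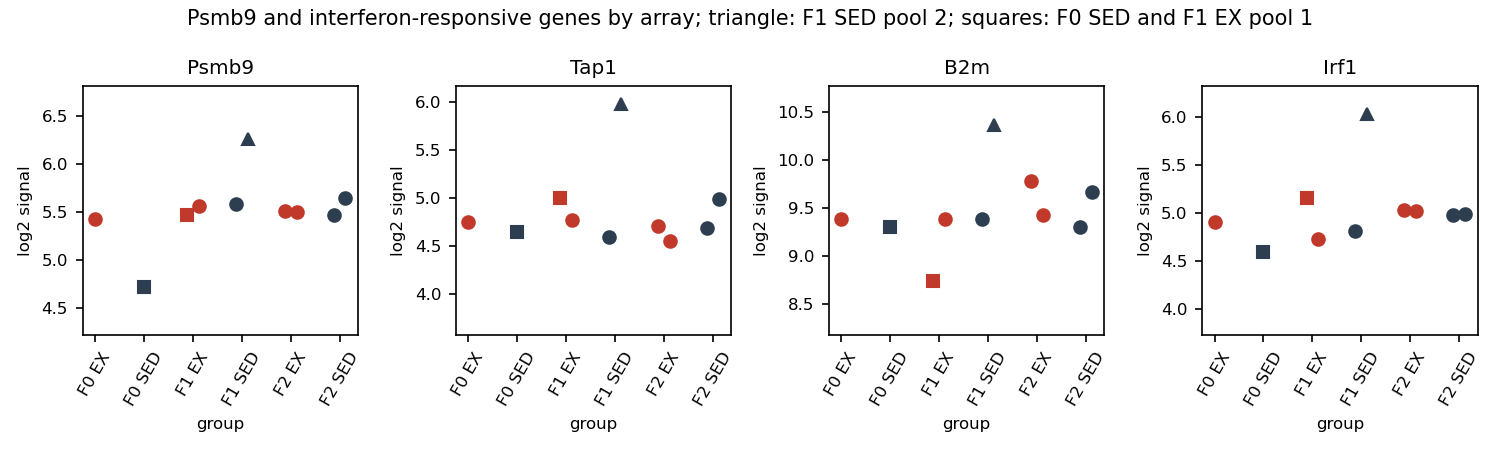
Log2 signal of Psmb9 and of Tap1, B2m and Irf1 by group, 1 point per array, EX red and SED dark; squares mark F0 SED and F1 EX pool 1 and the triangle F1 SED pool 2. The triangle is the highest point in all 4 panels, at 6.27, 5.98, 10.36 and 6.03.

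In the F1 contrast, the sign of some inducible genes changed when single pools were left out. The F1 difference was -0.41 for Psmb9 (SE 0.20), 0.25 for Psmb8 (SE 0.22), 0.03 for Psmb10 (SE 0.28), -0.27 for Psme1 (SE 0.13) and -0.37 for Psme2 (SE 0.29), with limma adjusted p-values from 0.804 to 0.991. Without F1 SED pool 2, the differences of Psmb9 and Psme1 shrank to -0.07 and -0.14. Psme2 turned to 0.06 without F1 EX pool 1 and to 0.020 without F1 SED pool 2. Psmb10 turned to -0.50 without F1 EX pool 1, and Psmb10 and Psmb8 turned to -0.20 and -0.10 without F1 SED pool 1. In F2 the differences of Psmb8, Psmb9 and Psmb10 were -0.25, -0.06 and 0.04.

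Against their descendants, F0 muscle had 0 of 47 proteasome genes past limma's adjusted threshold, where 2.33% of all genes were called. At an unadjusted p under 0.05 there were 5 members (10.6%) against 17.6% of genes, and 22 of 47 estimates (46.8%) lay above 0 against 45.1%. The members' median was -0.01 and that of all genes -0.02. The 5 members with the smallest p were Psmd8, Psmd10, Psmb9, Psmd2 and Psmd7. The 95% interval lay within 0.5 on the log2 scale either way for 29 of 47 members.

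Psmd8, a subunit of the lid, came closest to the threshold. F0 EX had a log2 signal of 9.50 and F0 SED one of 9.61, against 9.39 and 9.06 in F1 EX, 9.21 and 9.18 in F1 SED, 9.01 and 9.10 in F2 EX and 9.00 and 9.05 in F2 SED. Both F0 pools were above all 8 descendant pools. The difference was 0.43 (SE 0.11, limma adjusted p = 0.0680), and without F1 EX pool 1 it was 0.46 with an adjusted p of 0.0219, beside 4.88% of genes called. Psmd10 (gankyrin), which helps to assemble the ATPase ring, had 6.34 in F0 EX and 6.03 in F0 SED, and 5.64 to 5.98 in the descendants. Its groups did not overlap either, with a difference of 0.40 (SE 0.12, limma adjusted p = 0.128). Psmd7 had 8.99 and 8.94 in the F0 pools, above all descendants but F1 EX pool 1 with 9.10, and a difference of 0.26.

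Psmd2, with Psmd1 a scaffold of the cap's base, had 10.16 in F0 EX, 10.10 in F1 EX pool 1 and 10.05 in F0 SED, and 9.75 to 9.87 in the other descendants, with a difference of 0.27. A second Psmd2 probe set gave 9.74 in F0 EX but 9.02 in F0 SED, below the descendants' 9.08 to 9.42, so both probe sets disagreed on F0 SED. They also disagreed on F1 EX pool 1, with 10.10 in the first and 9.08 in the second. The Psmb3 probe sets parted on F0 SED too. It was the lowest array at 8.19 in the one used here, and at 8.33 in the other it was above all but F1 EX pool 1. Psmb9 was lower in F0 by 0.56 (SE 0.21, limma adjusted p = 0.199), with 5.43 in F0 EX and 4.72 in F0 SED, both below the descendants' 5.47 to 6.27. Without F0 SED, this difference was -0.08. With F0 EX left out, F0 SED alone stood for F0 and was taken to vary like the other groups, so the spread came from descendant pools only. In that fit 8 members were called lower (Psma3, Psmb3, Psmb7, Psmb9, Psmd6, Psmd14, Psme3 and Psme4), beside 10.3% of genes. Without F0 SED, 0 members were called and all 7 alpha subunits had estimates above 0, with a median of 0.21 in place of -0.08. In F0 the vessel markers Pecam1 and Cdh5, 2 of 10 endothelial markers, and 4 of 8 fibroblast markers were called lower, with Col1a1 at 9.51 and 9.56 in F0 and 11.65 to 12.06 in descendants, and their part in the values of Psmd8 and Psmd10 was not tested.

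F0 EX and F0 SED, the only pools with a direct exposure, were single arrays and could not be tested. F0 EX was higher by at least 0.5 on the log2 scale for 12 of 47 members (25.5%), against 15.3% of all genes, and lower by that amount for 0, against 5.38%. The median difference was 0.24 for members and 0.08 for all genes. Under quantile normalization 8 members were higher and 2 lower with a median of 0.03 (0.01 for all genes), with arrays centred over all probe sets 17 were higher and 0 lower with 0.39 (0.22), and with centring over kept genes 10 were higher and 1 lower with 0.12 (-0.04). By role, 3 of 7 alpha subunits, 1 of 7 standard beta subunits, 1 of 3 immunoproteasome subunits, 2 of 6 ATPases, 2 of 11 non-ATPases, 2 of 4 activators and Psmf1 were higher by at least 0.5.

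Psma3, in the alpha ring, had the largest difference, 1.07, from 8.90 in F0 EX and 7.84 in F0 SED. In descendants it had 8.34 and 8.94 in F1 EX, 8.80 in both F1 SED pools, 9.00 and 8.80 in F2 EX and 8.93 and 8.75 in F2 SED, so F0 EX lay among the descendants and F0 SED below them. All 3 Psma3 probe sets had F0 SED as the lowest array. Psme4 (PA200), an activator known for its part in histone degradation, had 10.05 in F0 EX and 9.02 in F0 SED, a difference of 1.02, with 9.29 and 9.95 in F1 EX and 9.84 to 9.95 in the other descendants. F0 SED and F1 EX pool 1 were its low arrays. Psma4 followed with 0.96 (7.90 and 6.95).

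In most other roles the member with the largest F0 difference also had a low value in F0 SED. The lid deubiquitinase Psmd14 had 7.19 in F0 EX but 6.26 in F0 SED, with 6.88 to 7.09 in descendants. Psmf1, which binds the core's ends, had 6.52 and 5.78, against 6.06 to 6.30. Psmb7 (10.37 and 9.67) and Psmb9 (5.43 and 4.72) each differed by 0.71. Psmc6, the ATPase with the largest difference, had 8.11 and 7.49, with 7.05 in F1 EX pool 1 and 7.96 to 8.26 in the other descendants. Exceptions were Psmd10 (6.34 and 6.03), whose F0 EX was the highest array, and the chaperone Psmg1 with 6.42 and 6.10 against 5.82 to 6.27 in descendants, where F0 EX was also the highest.

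On the other side, Psmc3ip had -0.50, Psmc3 -0.33 and Psmb10 -0.31. Psmc3, an ATPase, had 8.48 in F0 EX and 8.81 in F0 SED, with 8.84 in F1 EX pool 1 and 8.33 to 8.45 in the other descendants, so F0 SED and F1 EX pool 1 were the high arrays. Psmc3ip had 3.75 in F0 EX and 4.25 in F0 SED, with 4.09 in F1 EX pool 1 and 3.59 to 3.91 in the others.

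F0 SED and F1 EX pool 1, which both came from sedentary animals and differ in age and generation, were set against the other 8 arrays member by member. Both lay below the range of the other 8 arrays for 11 of 47 members (23.4%), against 13.7% of all genes: Psma1, Psma2, Psma3, Psma4, Psma6, Psmb2, Psmb3, Psmc6, Psmd6, Psme3 and Psme4. Both lay above it for 6 (12.8%), against 8.76% of genes: Psmb4, Psmc2, Psmc3, Psmc3ip, Psmd3 and Psmg2. They lay on opposite sides for 4 (Psmb5, Psmb7, Psmc5 and Psmd9), or 8.5%, against 6.83%. A second Psmb3 probe set went the other way, with 8.54 in F1 EX pool 1 and 8.33 in F0 SED, above the other arrays' 8.09 to 8.32. Singly, F0 SED lay below the range for 19 members (40.4%) and above it for 8 (17.0%), against 32.8% and 18.8% of genes. F1 EX pool 1 lay below it for 14 (29.8%) and above it for 18 (38.3%), against 22.7% and 26.1%.

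Across the 47 members, the deviations of these arrays from the mean of the other 8 had a Pearson correlation of 0.69, and across all 11963 genes 0.39. Both sets of deviations are taken from 1 mean of 8 arrays, and genes are not independent replicates. Deviations were uneven within rings that hold each subunit in equal number. In the alpha ring, F1 EX pool 1 deviated by -1.15 for Psma4 and -1.10 for Psma2 but by -0.03 for Psma5. In the ATPase ring it deviated by -1.0 for Psmc6 but by 0.55 for Psmc4 and 0.43 for Psmc3. Between pools of 1 group, the F1 EX pools differed by at least 0.5 for 12 of 47 members (25.5%, against 15.3% of genes), the F1 SED pools for 3 (6.4%, against 2.64%), and the F2 EX and F2 SED pools for 0 (against 2.33% and 2.88%). The mean deviation of fast muscle markers from their all-array means was -0.14 in F1 EX pool 1 and -0.29 in F0 SED, against -0.01 to 0.12 in the other arrays, and the part of the muscle content or of the low signals of these arrays was not tested.

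**Figure D5:**
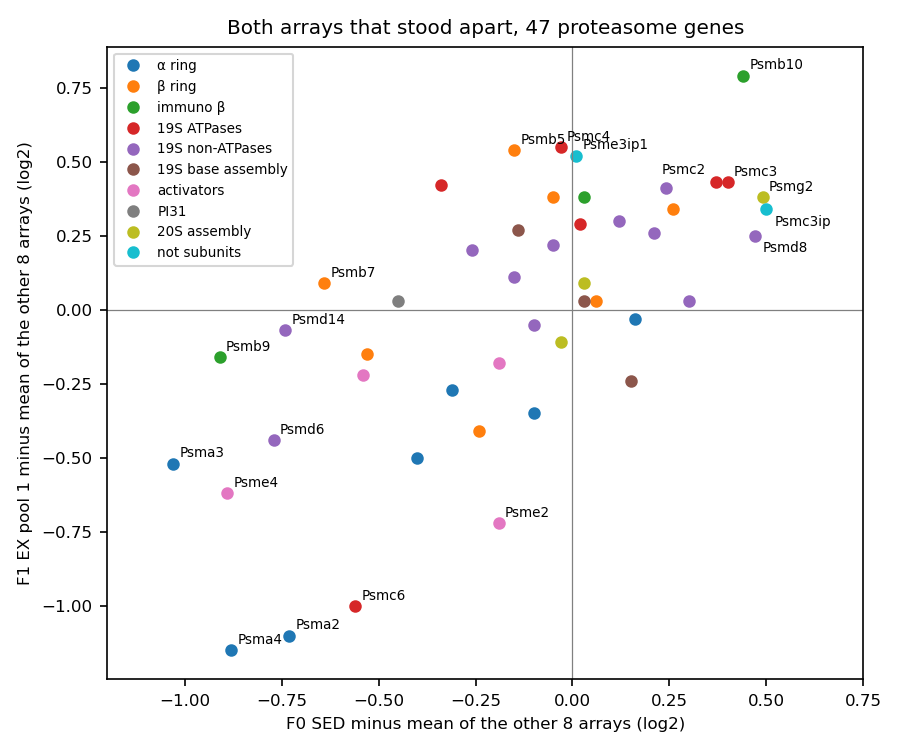
Deviation of F0 SED (horizontal) and of F1 EX pool 1 (vertical) from the mean of the other 8 arrays, in log2, for 47 proteasome genes coloured by role. Psma2, Psma3, Psma4, Psmc6 and Psme4 lie low in both arrays, Psmc2, Psmc3 and Psmg2 high in both, and Psmb7 is low in F0 SED only.

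Genes that work with the proteasome lay on either side in these arrays. From 4 lists of partners, 9 other components, 7 genes of the transcription factor axis, 9 ubiquitin and shuttle factors and 14 muscle ubiquitin ligases passed the filter, and limma called 0 of them in any comparison. Of these 39 genes, F0 SED lay below the range of the other 8 arrays for 15 (38.5%) and above it for 11 (28.2%), against the 32.8% and 18.8% of all genes given above. F1 EX pool 1 lay below it for 11 (28.2%) and above it for 9 (23.1%), against 22.7% and 26.1%. The other components were mostly on the low side, with 4 of 9 below in F1 EX pool 1 and 7 in F0 SED, and of the 9 ubiquitin and shuttle factors 4 were above and 2 below in each array. Pomp, the chaperone of core maturation, had 8.50 in F1 EX pool 1 and 8.23 in F0 SED and 8.82 to 9.13 in the other arrays. The cap's deubiquitinases parted: Usp14 had 6.29 in F1 EX pool 1 and 6.52 in F0 SED against 6.84 to 7.38 elsewhere, whereas Uchl5 was low only in F0 SED, with 5.21 against 6.12 to 6.31. Txnl1, a thioredoxin bound to the cap, had 5.22 in F1 EX pool 1 and 5.73 in F0 SED and 6.64 to 6.91 elsewhere. Ube3c, a ligase bound to the cap, was high instead, with 8.85 and 8.51 against 8.18 to 8.42. The shuttle factor Rad23b, which carries ubiquitinated proteins to the cap, had 8.00 and 8.16 in these arrays against 7.54 to 7.79.

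The transcription factors of proteasome genes differed from each other. Nfe2l2 had 6.12 in F1 EX pool 1 and 6.42 in F0 SED, against 7.04 to 7.36 in the other 8 arrays, the same low arrays as Psma4. Nfe2l1 had 10.11 in F0 EX, 10.07 in F1 EX pool 1 and 9.90 in F0 SED, against 9.59 to 9.87 in the others, so these arrays were its highest. Its difference between F0 and descendants was 0.21 (SE 0.11, limma adjusted p = 0.355).

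Of the muscle atrophy ligases, Fbxo32 (atrogin-1) had 10.06 in F0 EX and 9.18 in F0 SED, 8.77 and 9.05 in F1 EX, 9.14 and 9.21 in F1 SED, 8.93 and 8.79 in F2 EX and 8.82 and 8.93 in F2 SED. F0 EX was far above the others and F0 SED lay within the descendants. The difference between F0 and descendants was 0.67 (SE 0.19, limma adjusted p = 0.0943). Trim63 (MuRF1), which targets myosin, lay between 8.24 and 8.62 in all arrays, with 8.57 and 8.62 in the F0 pools, a difference of 0.14 (SE 0.11).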

How the data were processed

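Signals of 10 arrays, each a pool of 5 animals, were used. The authors deposited log2 probe set signals, from 0.966 to 14.2; the scale was read from this range. Affymetrix Expression Console is named per the submitters' processing notes; for its version, normalization and build: not given in the sources used here. Of 35557 probe sets, 21789 had 1 symbol in the platform annotation of GEO, whose names may be outdated; those with several named no gene. Where a gene had several probe sets (5 members), the one with the highest mean was taken. Members and lists were chosen with earlier results of these data known.

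Tests used limma 3.58.1 under R 4.3.3 (lmFit, eBayes, Benjamini-Hochberg over 11963 genes). Ancestry effects within F1 and F2, and their difference, were contrasts of the 4 descendant groups, those over both generations and F2 against F1 came from an additive model of 8 arrays, and F0 was fitted in one of all 10. The F0 pools were compared by size, with a bound of 0.5. The fits were tested on simulated data with the same normal spread in all arrays, which leaves out the arrays that stood apart. Changes of 0.5 were recovered for 16.9% of changed genes in F1, 35.8% in F2 and 1.4% for the difference of effects. The shares were 63% for F0 against descendants, 77.6% over both generations and 70.8% for F2 against F1. The number of arrays limits the precision. All members were counted. Values per array, or their ranges, are given for the 5 smallest p per comparison, the largest F0 differences, and the catalytic and activator genes. Alternatives were other scalings, filters, moderation, probe set means, array weights, the pool number as a block and leaving out each pool. Centring over kept genes and leaving out both arrays that stood apart were chosen after seeing the data.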

Additional observations from a re-analysis of the deposited data

Results flagged for a closer look

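Among the 8 descendant pools, 17 of 47 members (36.2%) had 1 pool far from the other 7 by Dixon's criterion for a gap relative to the range, against 16.6% of all genes; chance flags about 1 in 20 groups. F1 EX pool 1 was that pool for 16 of them. It was low for 7: Psma2 (6.20), Psma3 (8.34), Psma4 (6.67), Psma6 (8.34), the core subunit Psmb2 (7.45), Psmc6 (7.05) and Psme4 (9.29). It was high for 9: Psmb5 (8.19), Psmb6 (9.79), Psmc2 (9.08), Psmc3 (8.84), Psmc4 (8.44), Psmc5 (9.56), Psmd2 (10.10), Psmd3 (7.66) and Psmd7 (9.10). A second Psmd2 probe set had its lowest descendant value in that pool, with 9.08 against 9.23 to 9.42. For Psmb9, F1 SED pool 2 was high at 6.27, against 5.47 to 5.65.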

How the results depend on the processing

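No member was called in any of the 6 tested comparisons, and this held under every alternative run except when single pools were left out. The number called then ranged from 0 to 8 for F0 against descendants, 0 to 6 for F1 ancestry and 0 to 3 for the difference between F2 and F1 effects. Members' medians ranged, over pools left out, from -0.05 to 0.08 for F0 against descendants, 0.006 to 0.12 for F1, 0.038 to 0.14 for F2, -0.022 to 0.09 for the difference of effects and -0.08 to -0.013 for F2 against F1. Without both arrays that stood apart the F0 median was 0.08. Centring over all probe sets gave 0.14 for F2, 0.12 for the difference of effects and 0.39 for the F0 pools, centring over kept genes 0.025, -0.034 and 0.12, and quantile normalization -0.027 for the difference of effects and 0.030 for the F0 pools. In F1, single pools left out turned the sign of Psmb10 (-0.50 to 0.55), Psmb8 (-0.10 to 0.60) and Psme2 (-0.79 to 0.06, with 0.020 without F1 SED pool 2 and -0.20 for Psmb10 without F1 SED pool 1), and centring over all probe sets gave -0.004 for Psmb10. The cause was not tested. For F0, limma called 279 genes, 123 with the replicate block, 38 with array weights, 1231 without F0 EX, 86 without F0 SED, 584 without F1 EX pool 1 and 170 without both arrays that stood apart.

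Deviations of same-numbered pools had correlations from -0.11 to 0.06 between descendant groups. The labels do not say whether pools of the same number shared a step of handling, and this was not tested. With the replicate block 0 members were called in each comparison, and the median was 0.04 in F1 and 0.08 in F2.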
